A study of Mus musculus with 5 samples.

Results

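The CCT3 peaks in first introns were the rows of the deposited CCT3 eCLIP peak table whose annotation names an intron and gives it as intron 1 of its transcript. They numbered 867 of the 10916 CCT3 peaks, and the 3 peak tables of the study held 43658 peaks in all. The CCT3-2 table, used as the check, held 1319 peaks of the same class among 18650, and the PABPC1 table held 35 among 14092.

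The study profiled RNA bound by PABPC1 and by CCT3 in GC-2spd(ts), an immortalised mouse line labelled as spermatocyte. In eCLIP, bound RNA is cut with RNase, pulled down with an antibody to the protein and sequenced beside an input library made without the pull-down. The groups were PABPC1, PABPC1-input, CCT3 and CCT3-input with 1 sample each, plus a further sample, CCT3-2; the labels give no treatment, genotype change or time point for any of them. CCT3 and CCT3-2 carry the same library name, so CCT3-2 was not counted as a biological replicate, and no p-value was computed between samples.

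The first intron is usually the longest intron of a mammalian gene and holds much of the sequence near the promoter that regulates transcription. Introns are spliced out of the primary transcript in the nucleus and are mostly degraded there, so RNA fragments from an intron come from unspliced transcripts or from excised introns. CCT3 is a subunit of the TRiC chaperonin, a ring complex known for folding actin and tubulin in the cytoplasm, whereas PABPC1 binds poly(A) tails of mRNA.

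Each CCT3 peak carries the authors' log2 fold, taken here as pull-down over input, and a −log10 p that stops at 400. Every peak of the CCT3 and PABPC1 tables had both values at 3 or more, as did 83.7% of the CCT3-2 peaks. The tables give no read counts, so the depth behind a peak is unknown. Spermatocyte markers, a list of 26 genes, had no peak in either CCT3 table, while 9 of the 26 had a PABPC1 peak. Of the 21900 protein-coding genes, 2032 had a peak in the CCT3 table and 4992 in the PABPC1 table; a peak table does not measure expression. Intervals below are 95% intervals and cover counting error only, and peaks of 1 gene share their transcript and are not independent.

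The label of these peaks rested on the transcript chosen for each. Of the 867 members, 806 carried a gene ID, and 709 of these (88.0%, Wilson interval 85.5 to 90.03%) lay inside the RefSeq span of that gene. The share was higher for later introns, at 97.1% (2245 of 2312). The other 97 members belonged to 15 genes whose RefSeq span did not hold them, led by Fgf2 and Galnt2 with 16 peaks each, Dync2h1 with 15 and Rmi2 with 12. A further 61 members were in 15 transcripts with no gene ID. Of these 158 members, 109 lay in another RefSeq gene and 49 in none; for these the named gene was not the RefSeq gene at that position, or none was named. When all intronic peaks outside their RefSeq gene were dropped, later introns included, first introns took 6.67% of the remaining CCT3 peaks. The 709 members kept had a median log2 fold of 4.40 and lay in 161 genes. Of these members 88.7% overlapped a CCT3-2 peak. The values with all members follow.

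The bases of only a few members could be read, from the RefSeq windows around transcript starts in GRCm38.p6 (the mm10 build). Those windows reach 250 bases before a start. The 5 shown are the members with at least 20 of their bases in that stretch, and they are shown because they are first introns by 1 transcript and sequence before the start by another. Capitals mark bases inside the peak and lower case the bases beside it, with at most 30 bases given, 5′ to 3′ on the strand of the overlapping CCT3-2 peak or, for Egfem1, on the strand of the gene.
Egfem1 (chr3:29082382-29082411, plus strand): gaagaGGGCGTGGGGGTGGGGGCCGcctga
Hoxaas3, upstream of Hoxa5 (chr6:52204800-52204829, minus strand): CCTCGCCGGGCGTGCGATCGGCAGCtgacg
Rbmxl1 (chr8:78508569-78508598, minus strand): TTCCCTGGGGGGCGGTGAGAGAGCGACCCA
Transcript ENSMUST00000044500.5, upstream of Vcan (chr13:89742516-89742545, plus strand): ggggcGGAAAGGAGCTCCCTCAGCCTGCGG
Dync2h1, upstream of Dcun1d5 (chr9:7184255-7184282, minus strand): cgggtGTTCTTGGTGGGCCTGAGATCAA
The Egfem1 peak was 20 bases wide and 90% G or C. It had a −log10 p of 41.5 at a log2 fold of 4.34, and no CCT3-2 peak overlapped it. The peak bases in the window were 69.7% G or C for Hoxaas3, 64.3% for Rbmxl1, 69.6% for the transcript before Vcan and 52.2% for Dync2h1. All 4 of these overlapped a CCT3-2 peak that the second table placed in its promoter class. Their log2 folds were 3.61, 4.13, 4.94 and 5.21 in that order.

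First introns held more CCT3 peaks than any other intron position. They took 7.94% of all CCT3 peaks (7.45 to 8.46%) and 26.8% of the 3235 intronic peaks (25.3 to 28.4%). Intron 2 took 15.2%, intron 3 10.2%, intron 4 6.92% and intron 5 6.77%. In the CCT3-2 table the first-intron share of intronic peaks was 25.6% (24.4 to 26.8%), overlapping the interval of the CCT3 table. PABPC1 had 35 first-intron peaks, which was 0.248% of its peaks, but 22.7% of its 154 intronic peaks (16.8 to 29.96%). First introns were thus a far smaller part of the PABPC1 table as a whole, while their part of the intronic peaks overlapped in interval between the tables. When only intronic peaks inside their RefSeq gene were kept, the CCT3 share was 24.0%.

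The share in intron 1 was lower for transcripts with more introns. It would also fall if peaks were spread evenly over introns, so the fall alone does not set first introns apart. Transcripts with 1 intron gave 92 peaks in 21 genes or transcripts, for which the first intron is also the last. With 2 introns 72.1% of the intronic peaks (119 of 165) were in the first, and with 3 introns 36.5% (84 of 230), where the second intron held 48.3%. Of those 119 peaks, Airn gave 31 and Gm13483 gave 16. The share fell from 28.9% for transcripts with 4 or 5 introns to 23.2% with 6 to 10, 20.6% with 11 to 20 and 13.4% with more than 20. With 4 or 5 introns the second intron held 27.0%, inside the interval of the first intron (24.2 to 34.2%). With 6 to 10 it held 20.1%, just below that interval (20.5 to 26.2%). In the last 2 classes the second intron held 5.54% and 4.803%, below the interval of the first intron in both. CCT3-2 gave shares of 70.2%, 37.8%, 27.8%, 22.5%, 20.96% and 11.5% for the classes from 2 introns up, each inside the interval of the CCT3 value. Intron lengths were not used here, so none of these shares is per base of intron.

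**Figure D1:**
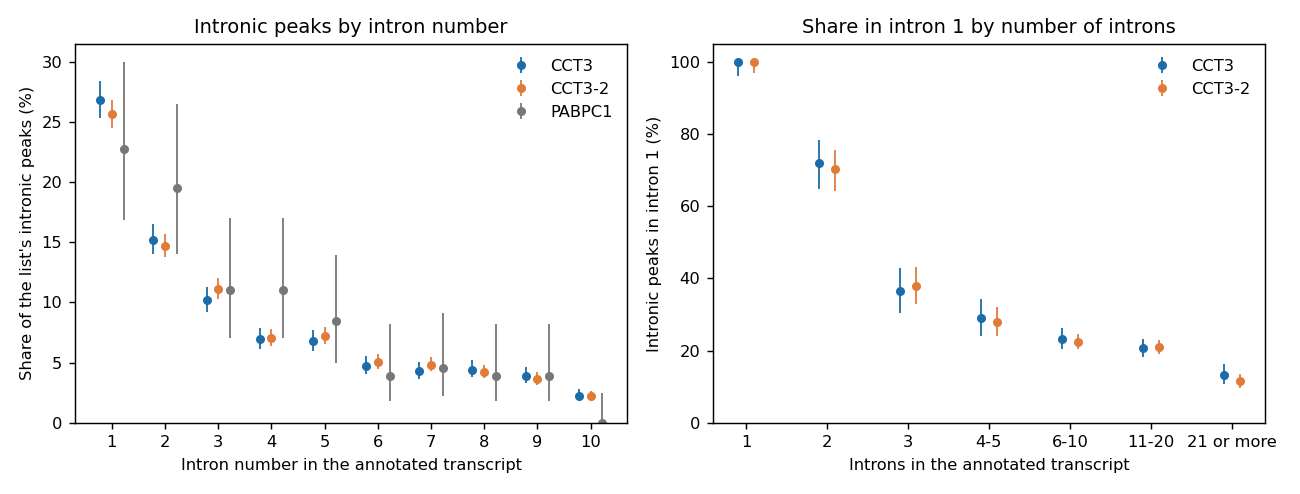
Left, share of each table's intronic peaks (%) at intron numbers 1 to 10 for CCT3, CCT3-2 and PABPC1; right, share of intronic peaks in intron 1 (%) by the number of introns of the annotated transcript for the CCT3 tables. Points are shares and lines 95% Wilson intervals; intron 1 is the highest point in all 3 tables (26.8%, 25.6% and 22.7%).

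The first-intron peaks had high folds for the CCT3 table with moderate p-values. Their median log2 fold was 4.40 (interval of the median 4.35 to 4.49), with quartiles of 3.94 and 4.96 and a range of 3.01 to 7.76. Later introns had a median of 4.35 (4.30 to 4.40), which overlapped that interval. Exon peaks and 3′ UTR peaks had lower medians, 3.91 and 3.85. The order of the −log10 p was different: the median was 6.46 in first introns and 5.92 in later introns, against 8.90 in exons and 7.82 in 3′ UTRs. Peak width did not separate the classes, with a median of 58 bases in first introns, 61 in later introns and 59 in exons. In first introns the width ran from 5 bases to 310 bases, the widest in Sfxn2, and 17 members were under 20 bases wide.

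The stricter limit, at least 4 in log2 fold and at least 5 in −log10 p, was met by 451 members (52.0%, 48.7 to 55.3%), against 41.9% of all CCT3 peaks. Later introns met it in 47.2% (45.2 to 49.2%) and exon peaks in 40.1%. Among the first-intron peaks of CCT3-2 it was met by 42.3%, against 34.3% of all CCT3-2 peaks. First-intron peaks stood above the whole list in both.

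**Figure D2:**
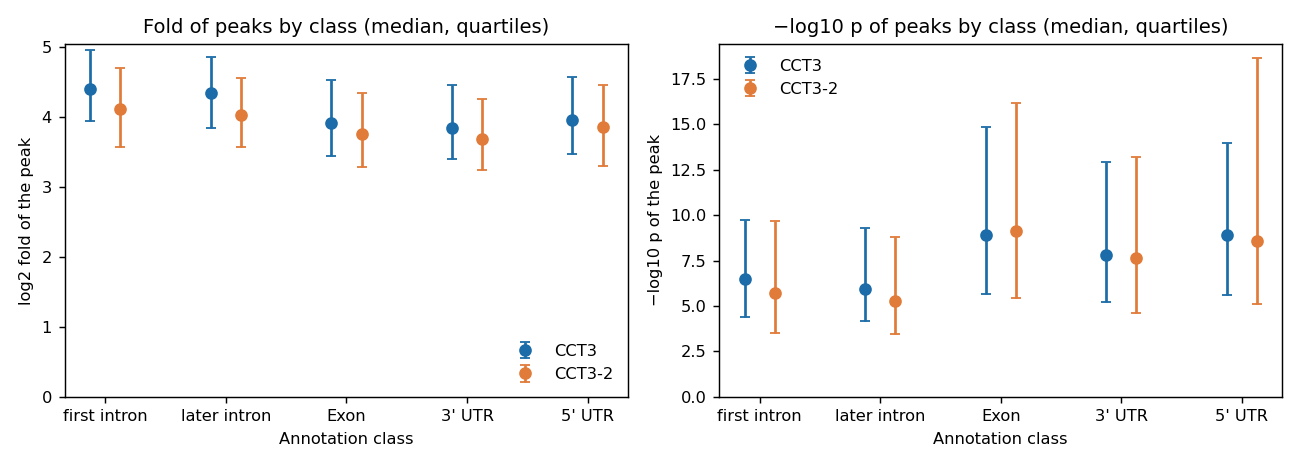
Median (point) and quartiles (bars) of the log2 fold (left) and of the −log10 p (right) of the peaks in each annotation class of the CCT3 and CCT3-2 tables. Both intron classes sit highest in fold (medians 4.40 and 4.35 in CCT3) and lowest in −log10 p (6.46 and 5.92).

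The 867 peaks fell in 191 genes or transcripts on 20 chromosomes, with a median of 3 each. In 67 of the 191 there was 1 peak, while the 23 genes with 10 or more peaks held 360 members (41.5%). The 10 genes with most peaks held 197 (22.7%), and without all peaks of these genes the first-intron share of intronic peaks was 22.1%. Of the 191, 176 had a RefSeq gene ID, 164 of them protein-coding and 10 long noncoding. Long noncoding RNA genes held 82 members (9.46%, 7.68 to 11.6%), against 2.83% of later-intron peaks. Airn, Gm13483 and Brip1os held 62 of those 82; without these genes the share was 2.48% (20 of 805).

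Airn, the imprinted long noncoding RNA that silences Igf2r from the paternal allele, had the most first-intron peaks, 31 in CCT3 and 48 in CCT3-2. Here and below, CCT3-2 counts include peaks under the CCT3 limits and peaks that abut, so the counts are not in like units. The 31 CCT3 peaks ran over 59396 bases (chr17:12768668-12828063, plus strand, intron 1 of 2) in 16 groups, a group being peaks with gaps of at most 500 bases. Their log2 folds ran from 3.20 to 5.57 with a median of 4.32, and 28 of the 31 overlapped a CCT3-2 peak. All 31 lay inside the RefSeq span of Airn. Airn peaks were thus many, spread out and of ordinary height for first introns.

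Ghr, the growth hormone receptor, had 30 peaks in CCT3 and 48 in CCT3-2 in intron 1 of 10 (chr15:3506107-3555116, minus strand), and no CCT3 peak elsewhere in the gene. Their median log2 fold, 5.23, was above the upper quartile of all members, and the highest was 6.77. The peaks were concentrated rather than spread: of the 30, 10 lay within 1704 bases (chr15:3517450-3519153) and 9 within 1294 bases (chr15:3519655-3520948). In the second of these the peaks covered 48.8% of the bases. Overlap with CCT3-2 was found for 29 of the 30.

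Zfpm2, a cofactor of GATA transcription factors, had 19 peaks in CCT3 and 28 in CCT3-2, with 14 of the 19 within 2477 bases (chr15:40680532-40683008, intron 1 of 3). A pair of them, of 142 and 161 bases, had log2 folds of 6.79 and 6.73, and their −log10 p values were 49.3 and 42.3. The CCT3-2 peaks that shared most bases with them had log2 folds of 6.80 and 5.91. By these pairs the narrower peak was nearly as high in both tables, and the wider one was lower in CCT3-2. The highest log2 fold among all CCT3-2 first-intron peaks of Zfpm2 was 7.02.

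Ntmt1, which methylates the N-terminus of proteins, had all 18 of its first-intron peaks in 1 group of 3141 bases (chr2:30812826-30815966, intron 1 of 3), of which they covered 34.2%. Kif24, a kinesin that restrains the growth of cilia, had 17 of 18 peaks in 1 group of 3227 bases (chr4:41448173-41451399, intron 1 of 12). Brip1os, a noncoding RNA gene named for its neighbour Brip1, had all 15 in 3114 bases (chr11:86203174-86206287, intron 1 of 1). Cep57l1, related to the centrosomal protein Cep57, had 13 of 15 in 2378 bases (chr10:41798984-41801361, intron 1 of 11). These 4 were dense blocks of a few kilobases in introns of transcripts with few or many introns. Birc3, an inhibitor of apoptosis with ubiquitin ligase activity, had 11 of its 17 peaks in 1500 bases (chr9:7866722-7868221, intron 1 of 8), of which they covered 53.9%.

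The highest log2 fold was 7.76, in a Brip1os peak of 136 bases (chr11:86203600-86203735) whose −log10 p was 46.0, and the overlapping CCT3-2 peak had 7.59. Cep57l1 followed with 7.15 in CCT3 and 6.83 in CCT3-2. A Ulbp1 peak had 7.03 in CCT3 and no CCT3-2 peak. A further Brip1os peak had 6.92 and 6.67, a Ghr peak 6.77 and 6.59, and an Ntmt1 peak 6.63 and 6.52. The other members among the 10 highest folds were the pair in Zfpm2, a lone Tmod1 peak with 6.69 and 5.77, and a peak named for Fgf2 with 6.65 and 6.75. Of these 10 members 9 had a CCT3-2 peak. The CCT3-2 peak with most shared bases was lower in fold than the CCT3 peak in 7 and higher in 2. Other CCT3-2 peaks overlapping the same member were not counted in this tally.

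Ulbp1, a ligand of the natural killer cell receptor NKG2D, was the exception among the genes with many peaks. The CCT3 table held 16 peaks in its first intron (chr10:7456628-7468310, minus strand, intron 1 of 4) with log2 folds of 3.37 to 7.03, and the −log10 p reached 35.7. It held 9 more in later introns, 25 in the RefSeq span of Ulbp1 in all. The CCT3-2 table used here held 0 peaks in that span, as did the PABPC1 table. The other 22 genes with 10 or more first-intron CCT3 peaks had between 11 and 48 in CCT3-2. Why the tables differ at this gene was not tested.

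**Figure D3:**
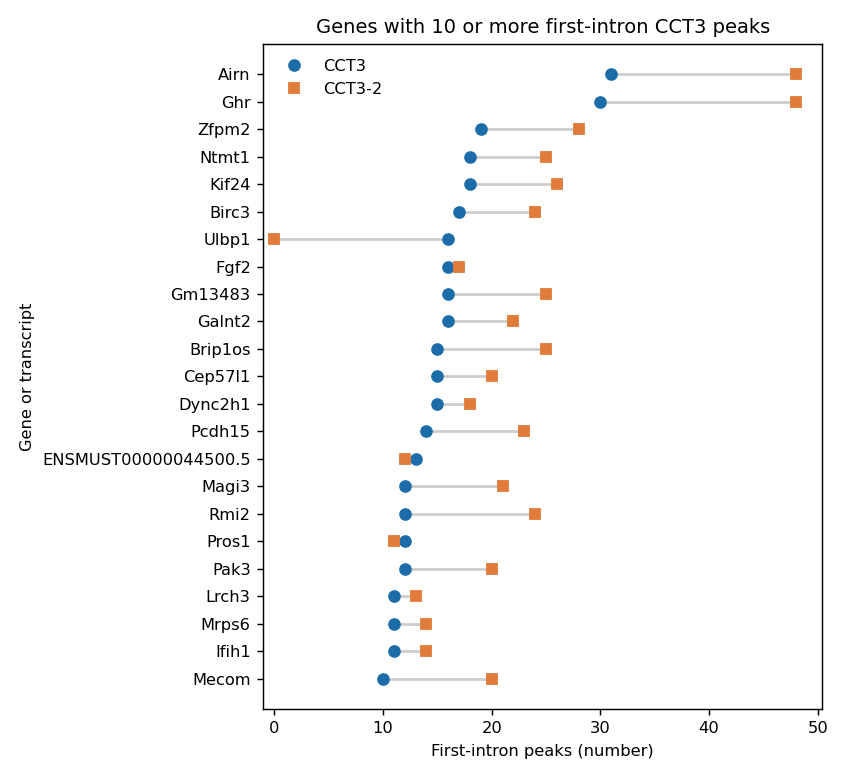
Number of first-intron peaks in CCT3 (circles) and CCT3-2 (squares) for the 23 genes or transcripts with 10 or more in CCT3. Airn (31 and 48) and Ghr (30 and 48) lead, and Ulbp1 has 16 in CCT3 and 0 in CCT3-2.

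The remaining genes of the top 10 differed in how firmly the gene name holds. Gm13483, a long noncoding RNA gene, had 16 peaks in CCT3 and 25 in CCT3-2, all 16 inside its RefSeq span (chr2:50332884-50354354, intron 1 of 2) with a median log2 fold of 4.61. The 16 peaks named for Fgf2, the basic fibroblast growth factor, all lay before its RefSeq span (chr3:37326292-37337310), in intron 1 of a transcript with 1 intron; their highest log2 fold was 6.65. The 16 named for Galnt2, an enzyme that starts O-linked glycosylation, were spread over 1749384 bases of chromosome 8 and all lay outside that gene. Dync2h1, the heavy chain of the dynein of cilia, was not in the top 10. The 15 peaks named for it likewise lay in 2671 bases beyond its RefSeq span (chr9:7181607-7184277). For Fgf2, Galnt2 and Dync2h1 the values describe a place in the genome and not that gene's first intron in RefSeq.

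**Figure D4:**
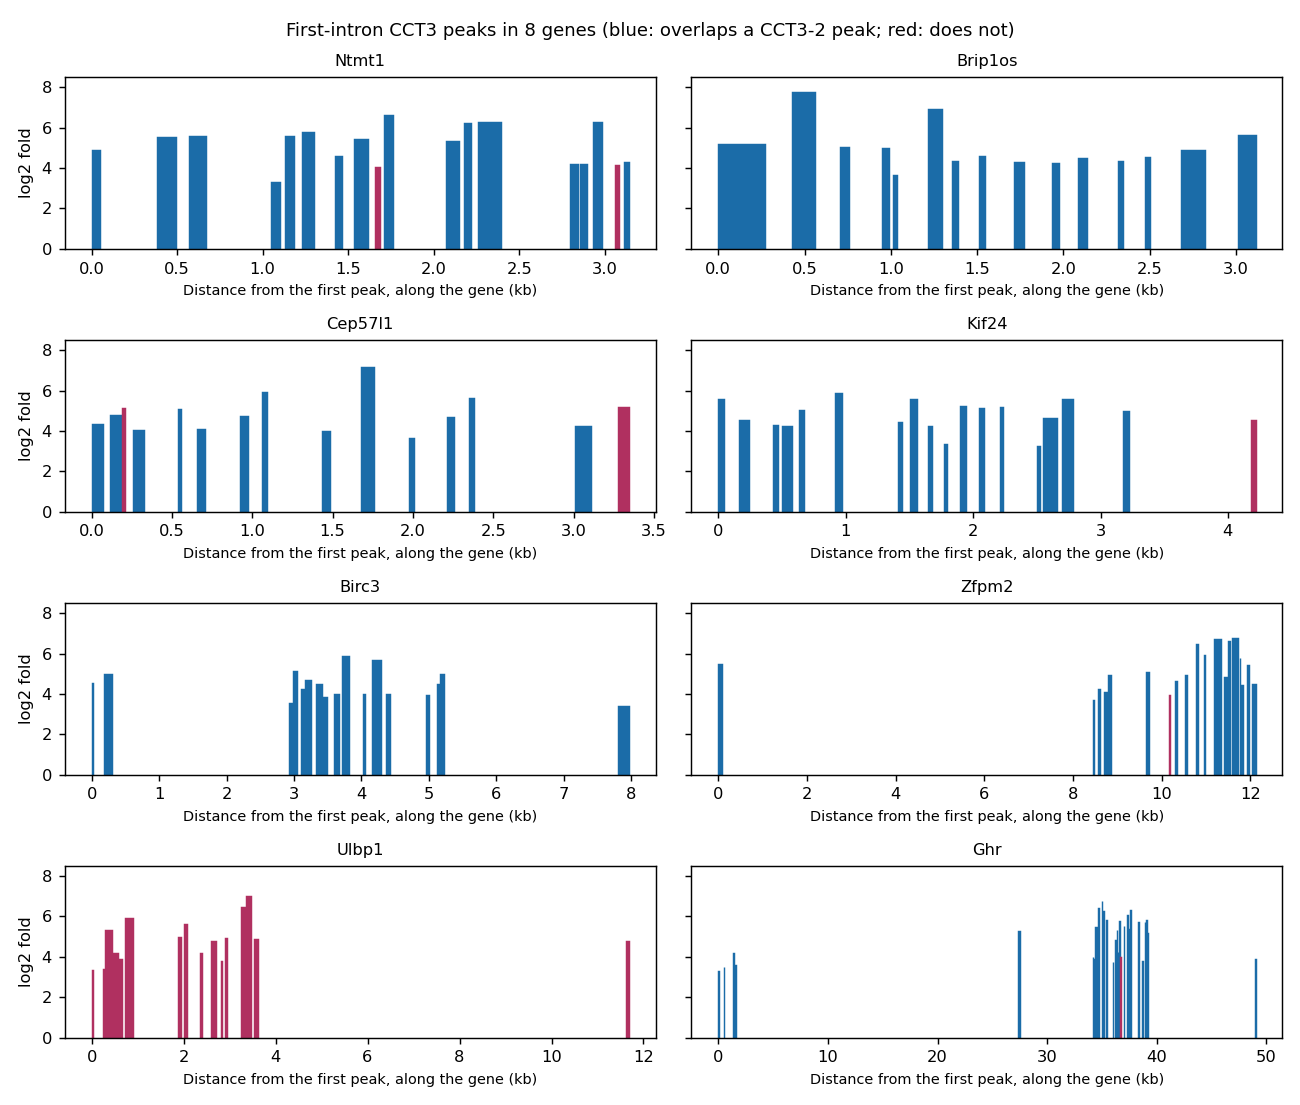
First-intron CCT3 peaks in 8 genes: bars span each peak at its distance from the first peak along the gene (kb, horizontal) and reach its log2 fold (vertical); blue bars overlap a CCT3-2 peak and red bars do not. Ntmt1 and Brip1os fill about 3 kb without a gap of over 500 bases, most Ghr peaks sit in a narrow block, and all 16 bars of Ulbp1 are red.

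Peaks of 1 gene stood close together across the class. The median gap between neighbours in a gene was 182 bases, and 77.9% of the members (74.97 to 80.5%) had another within 500 bases. Later introns gave 167 bases and 75.7% (73.9 to 77.4%), so the spacing did not set first introns apart. The members formed 366 groups, of which 43 had 5 or more peaks; these 43 held 321 members (37.0%) and had a median length of 1108 bases. CCT3-2, with more first-intron peaks, had a median gap of 116 bases, but it includes weaker peaks and peaks that abut.

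Most first-intron peaks were not close to the listed nearest start. The median distance to it was 9485 bases, with quartiles of 3344 and 23955 bases. That start need not belong to the annotated transcript: 274 members (31.6%, 28.6 to 34.8%) lay upstream of it. Within 1000 bases lay 88 members (10.1%, 8.31 to 12.3%), against 5.70% of later-intron peaks. Among 692 members placed along their RefSeq gene, the median position was 20.5% of the way from start to end, and later-intron peaks had a median of 56.8%. In 102 members (14.7%) the position was past the middle of the gene. The peaks further than 1000 bases from a start had a median log2 fold of 4.41, next to 4.40 for all members.

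Host genes were long, and most had no CCT3 peak outside the first intron, some of them with only 1 CCT3 peak in all. The counts and lengths here include the 15 genes whose RefSeq span did not hold their members. The median RefSeq length was 78485 bases for the 176 genes with a member, 93177 for genes with a later-intron peak, 37380 for genes with any CCT3 peak and 17146 for all protein-coding genes. Of the 176 genes, 108 (61.4%, 54.0 to 68.2%) had no CCT3 peak outside the first intron. A host with only 1 CCT3 peak is in this count by construction. The matching share for genes of other classes was not computed, so the count does not set first introns apart. Among the rest, 37 had an exon peak, 24 a later-intron peak and 14 a 3′ UTR peak, with some genes in more than 1 of these counts. Zfpm2 had 5 exon peaks beside its 19, and Brip1os had 15 later-intron peaks beside its 15.

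Peaks lay on the strand of the gene. The CCT3 table has no strand, so strand was read from the overlapping CCT3-2 peak, and 678 of 701 members with both strands known (96.7%, 95.1 to 97.8%) were on the strand of their gene. The 23 on the opposite strand included all 13 with a known strand in Pcdh15, a protocadherin of the hair cell's tip links, and 5 in Galnt2. Without Pcdh15 the opposite share was 1.45% (10 of 688). The 14 Pcdh15 peaks had log2 folds of 3.67 to 5.26 and all lay in the RefSeq span of Pcdh15 (chr10:73272284-73295631, intron 1 of 13), on the other strand from it.

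The CCT3-2 table held most of the same positions. A CCT3-2 peak overlapped 770 of the 867 members by at least 1 base (88.8%, 86.5 to 90.7%), against 89.9% of all CCT3 peaks and 88.9% of later-intron peaks. First introns were thus at the level of the whole table. For 687 members (79.2%) the overlapping peak was also called first intron, and for 79 (9.11%) it was in the promoter class, which holds 16.15% of the CCT3-2 table and 0.925% of the CCT3 table. Among peaks over 1000 bases from the listed start, first introns took 8.46% in CCT3 and 8.43% in CCT3-2. In the other direction 60.0% of the 1319 CCT3-2 first-intron peaks overlapped a CCT3 peak. Of the genes, 158 were shared, which is 82.7% of the 191 in CCT3 and 68.7% of the 230 in CCT3-2.

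The folds of overlapping peaks were close. Over the 770 pairs the median difference, CCT3-2 minus CCT3, was -0.06 in log2, and its 10th and 90th percentiles were -0.53 and 0.31. Spearman's rho across these 770 peaks was 0.89, as a description of tables that may share their reads. The 97 members with no CCT3-2 peak had a lower median log2 fold, 4.17 against 4.44, and a lower median −log10 p, 4.74 against 6.46. In 21 genes, with 39 members in all, none overlapped a CCT3-2 peak, and 16 of those 39 were in Ulbp1. Outside Ulbp1 the share with an overlap was 90.5% (770 of 851).

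**Figure D5:**
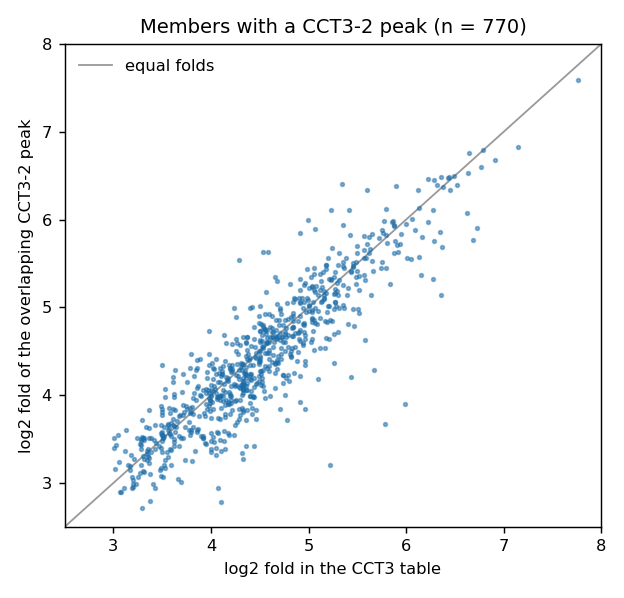
log2 fold in the CCT3 table (horizontal) against the log2 fold of the overlapping CCT3-2 peak (vertical) for 770 first-intron members, 1 point each; the line marks equal folds. Points follow the line, with a median difference of -0.06.

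Overlap with PABPC1 peaks was rare in the CCT3 table as a whole, and first introns were at that level. Of the 867 members, 4 overlapped a PABPC1 peak (0.461%, 0.180 to 1.18%), an interval that holds the 0.669% of all CCT3 peaks; later introns had 0 of 2368. With the CCT3-2 list the count was 10 of 1319. At Tmod1, a cap of actin filaments, the CCT3 peak of 21 bases (chr4:46039517-46039537) had a log2 fold of 6.69 in CCT3 and the PABPC1 peak 4.34; the overlapping CCT3-2 peak had 5.77. At Ctdspl, a small phosphatase, the log2 folds were 4.28 in CCT3 and 6.42 in PABPC1, over 28 shared bases. The listed nearest gene of that CCT3 peak was not Ctdspl but the microRNA gene Mir26a-1. The other 2 overlaps were in Slc5a11, a sodium-coupled inositol transporter, where CCT3 peaks of 6 and 9 bases both had a log2 fold of 3.71 at the capped −log10 p, 400, and the PABPC1 peaks 4.08 at the same cap. These Slc5a11 peaks shared 3 or 4 bases with the PABPC1 peaks and had no CCT3-2 peak.

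By gene, 52 of the 203 genes listed nearest to a member (25.6%, 20.1 to 32.0%) also had a PABPC1 peak anywhere. The share was 32.8% for all genes listed in the CCT3 table and 30.1% for those with a later-intron peak, the last inside the interval of the members. Of the 24 genes with a first-intron PABPC1 peak, 3 had a first-intron CCT3 peak. Of all 49997 RefSeq genes, 176 had one (0.352%). The count of 3 is small, and the difference was not tested. Among the 10 genes with most peaks, Ntmt1 and Galnt2 had 2 PABPC1 peaks each and the other 8 had none. The members named for Galnt2 and Fgf2 lay outside those genes. For these names the PABPC1 count does not describe the place of the members.

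The lists of known pathways and cell types gave a small number of hosts. In lists of 575 genes for 16 functions or cell types, 10 had a first-intron CCT3 peak and 16 a CCT3-2 one. Of all 49997 RefSeq genes, 176 and 213 had one, and of the 21900 protein-coding genes 164 and 197. The listed genes were thus hosts more often than genes at large, but this was not particular to first introns. Any CCT3 peak was found in 167 of the 575, against 2147 of the 49997 and 2032 of the 21900. The lists were also chosen with earlier results known. Why the listed genes had peaks more often was not tested. Transcription factors and chromatin regulators had 2 of 60, among them Smad3, which carries TGF-beta signals, with 3 peaks of log2 fold 3.35 to 4.05. In the poly(A) and RNA decay list 1 of 50 was a host, Cnot4, a ubiquitin ligase tied to the CCR4-NOT deadenylase, with 9 peaks of 3.38 to 5.04 that all overlapped a CCT3-2 peak. The splicing list had 0 of 58, the cell cycle and repair list 0 of 53, and the translation and folding list 0 of 38, counts too small to set these lists apart from the share of all genes. The 5 lists of cell type markers had no host in either CCT3 table.

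Most other lists gave a single gene. Rnf213, a very large ubiquitin ligase, was 1 of 43 and had 4 peaks of log2 fold 3.32 to 4.20. Prkce, a protein kinase C, was 1 of 62 and had 4 peaks between 4.10 and 4.24, of which 3 overlapped a CCT3-2 peak. Sptbn1, a spectrin of the membrane skeleton, was 1 of 58 and had 7 peaks of 3.27 to 4.79, of which 5 overlapped. Nbea, a scaffold of membrane traffic in a common fragile site, was 1 of 25 and had 5 peaks of 3.11 to 6.09, all of which overlapped. Birc3 was the host among 33 p53 and apoptosis genes, and Airn and Brip1os were the hosts among 29 long noncoding and imprinted transcripts. These list genes, apart from Birc3, Airn and Brip1os, had fewer than 10 first-intron peaks each.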

How the data were processed

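The study deposited 1 annotated peak table per pull-down, covering 5 samples in 3 tables. The authors' files were made with bcl2fastq 2.20 and build mm10, per the submitters' processing notes; the aligner, peak caller, annotation tool and duplicate treatment are steps not given in the sources used here. Per the file headers, the deposited CCT3 table gives each peak's −log10 p and log2 fold. In the deposited PABPC1 and CCT3-2 tables the columns are unnamed and were taken as −log10 p and log2 fold from their range. What the log2 fold is relative to is not stated, and it was taken as pull-down over input.

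Peaks were classed from the annotation text, and their genes were matched by gene ID to RefSeq (GRCm38.p6): 176 of 191 genes or transcripts matched, and all 575 genes of the 16 lists. Peaks were compared by an overlap of at least 1 base without regard to strand, since the CCT3 table has none. Where several CCT3-2 peaks overlapped a member, the fold and class of the one with most shared bases were used. Some CCT3-2 peaks abut, such as chr17:12775747-12775800 and chr17:12775801-12775874 in Airn. The overlap step was tested on simulated peaks, where it found 200 of 200 planted overlaps among 867. Shares have 95% Wilson intervals and medians an exact order-statistic interval. With 1 sample per group there is no test. Python 3.11.15, numpy 2.4.6, pandas 2.3.3, scipy 1.17.1 and matplotlib 3.10.9 were used.

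The text names the 10 genes with most first-intron peaks, the genes of the 10 highest folds, up to 4 genes per list by fold, and those with a peak overlapping a PABPC1 peak. A gene that the rule names is not reported here. Dync2h1, Pcdh15, Rmi2, Sfxn2, Egfem1, Hoxaas3, Rbmxl1 and the transcript before Vcan were picked with their values in view. The class and the lists were chosen with earlier results of these data known. The alternatives were a stricter threshold, the CCT3-2 list, other overlap rules, peaks away from starts, merged peaks, covered bases and leaving out genes; the restriction to RefSeq spans, 1 value per gene and the CCT3-2 list at the CCT3 threshold were added after seeing the data.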

Additional observations from a re-analysis of the deposited data

How the results depend on the processing

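The 7 results were recomputed to 37 alternative values, of which 19 were inside the 95% interval of the reported value or, for counts, within 1.5 times of it. At a log2 fold of at least 4 and a −log10 p of at least 5 the first-intron share was 9.85% of all peaks and 28.8% of intronic peaks, the median log2 fold 4.94, the genes 113, and the overlap with CCT3-2, thresholded alike, 83.1%. Fewer peaks enter at that threshold by construction. With the CCT3-2 list in place of the CCT3 list the values were 7.07% of all peaks, 25.6% of intronic peaks, a median of 4.12, 230 genes and 10 peaks overlapping a PABPC1 peak in place of 4. At the threshold of the CCT3 list, that list gave 6.98% and a median of 4.28. Without the 10 genes with most peaks the shares were 6.27% and 22.1%. With all intronic peaks outside their RefSeq spans dropped, they were 6.67% and 24.0%. With 1 value per gene, its highest fold, the median was 4.68. A reciprocal overlap of 50% lowered the overlap with CCT3-2 to 79.1% and with PABPC1 to 2 peaks, and counting only first-intron CCT3-2 peaks gave 79.2%. Stricter limits and overlap rules lower a count by construction, and a limit on the fold works to raise the median fold. The 10 genes left out were picked for their many first-intron peaks, which works to lower the first-intron shares. The highest fold per gene was likewise picked for its height. Why the shares rose at the stricter limit, and the cause of the other moves, was not tested. Covered bases, merging and distance from the start kept the shares within their intervals.

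No paired analysis was possible because each group has 1 sample apart from CCT3, whose second sample has the same library name. Without read counts, weak peaks cannot be told from missing ones, so a peak absent from 1 table is not shown to be unbound.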
